A study of Homo sapiens with 4 samples.

Results

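PDX1, CDX2 and SOX9, the genes examined here, encode lineage factors of the pancreas, the intestine and the pancreatic ducts, and the measurement is where GATA4 intervals lie around them. The series is GATA4 CUT&RUN in PaTu8988S, an established cell line from a pancreatic adenocarcinoma. CUT&RUN uses an antibody to bring a nuclease to a DNA-bound protein, and the DNA fragments that are cut free are sequenced. There were 4 libraries of 1 group, each made from 500000 cells, for which the labels name no treatment, with 10 ug of the anti-GATA4 antibody MAB2606. The deposited result is 1 list of intervals common to the 4 libraries, with no score, signal or count for an interval, and the labels do not say whether the libraries came from separate cultures. No control library was analysed here, and no expression values, so neither the identity of the line nor whether these genes are active in it was examined.

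The intervals were chosen by position in genome build hg19. Those overlapping a gene or the 200 kb on either side of it were taken, and for SOX9 also those in the 1.5 Mb upstream. Together these windows held 20 intervals, of 21139 that the list has on autosomes and chromosome X. The PDX1 window held 17, the CDX2 window 16, the SOX9 window 0, and the 1.5 Mb upstream of SOX9 held 3. PDX1 and CDX2 are neighbours whose starts lie 49.1 kb apart, so their windows share 364.2 kb and 16 intervals, and they are not independent of each other. As the list merges the 4 libraries, no value below has a spread between libraries, read depth is unknown, and no test or p value is given. An interval's width is its end minus its start.

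GATA4 is a zinc-finger transcription factor that binds DNA at short sequences with the core GATA and acts in the early endoderm, from which the stomach, intestine, liver and pancreas form. PDX1 is a homeodomain factor required for the pancreas to form and, later, for beta cells. CDX2 is a homeodomain factor that sets intestinal identity. SOX9 is an HMG-box factor of pancreatic progenitors and of the adult ducts, and a wide gene-poor stretch that carries distant enhancers lies upstream of it.

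The widest of the 20 intervals lay over the start of CDX2, at chr13:28542303-28544039 (1736 bp). CDX2 is read toward falling positions, from 28543317 to 28536205, and this interval reached 722 bp upstream of its start and 1014 bp into the gene. The RefSeq promoter of CDX2, from 250 bases before to 50 bases after the RefSeq start, is shown because this interval lies on the promoter side of the gene. It is printed 5′ to 3′ on the minus strand from the GRCh38.p14 assembly (chromosome 13, 27969266 to 27969565), with the GATA motif in capitals.
CDX2 promoter: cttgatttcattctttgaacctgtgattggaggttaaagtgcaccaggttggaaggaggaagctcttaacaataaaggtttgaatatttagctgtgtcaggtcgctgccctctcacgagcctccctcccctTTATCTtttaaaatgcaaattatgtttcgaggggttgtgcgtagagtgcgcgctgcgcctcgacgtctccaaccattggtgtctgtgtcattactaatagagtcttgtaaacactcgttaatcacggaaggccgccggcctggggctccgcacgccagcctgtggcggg
Both strands were searched for the GATA motif in its 4 usual forms, with A or T before the GATA core and A or G after it. The promoter held 1 match, AGATAA on the opposite strand, read as TTATCT from position -119 to -114 relative to the RefSeq start. Any of the 4 forms occurs in 8769 of the 35116 RefSeq promoters of this length, and AGATAA alone in 10.3% of them. FOXA and HNF factors act beside GATA4 in the endoderm, and their motifs were searched on both strands as well. The FOX motif TGTTTAC was present once on the opposite strand, from -13 to -7, and occurs in 3.42% of promoters. The HNF1 half-motif GTTAAT was present once, from -3 to 3, and occurs in 6.88%. Neither overlapped the GATA match. The HNF4 motif CAAAGTCC (1.20% of promoters) and the SOX motif ACAAAG (16.1% of promoters) had no match to these letters in this window. The motifs were chosen with the sequence in view, and a match describes letters, not binding. RefSeq's start of CDX2 need not be the one used in hg19, where the gene is 1285 bp shorter. PDX1 and SOX9 had no entry in the promoter table.

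PDX1 carried 2 intervals over its body. PDX1 runs from 28494168 to 28500451 on chromosome 13 and is read toward rising positions. The first interval, chr13:28493807-28495410 (1603 bp), lay over the start, reaching 361 bp upstream and 1242 bp into the gene. The second, chr13:28497796-28499469 (1673 bp), lay wholly within the gene, 3.63 kb from its start. Together they covered 2915 bp, or 46.4% of the gene. Of 15286 windows of the same length tiled along chromosome 13, 6.57% held any interval, 98 held 2 or more, and 4 were covered as much as PDX1. These windows include CDX2, and the fullest of them, at 59.2%, lies over the start of CDX2. One more interval, chr13:28502929-28503557 (628 bp), lay beyond the far end of the gene, 8.76 kb from the start. The nearest interval on the upstream side was chr13:28476184-28476537, 17.6 kb away and 353 bp wide.

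CDX2 carried 4 intervals over its body and 1 just beyond its far end. Going into the gene from the interval over the start, the next was chr13:28541684-28542137 (453 bp), 1.18 kb from the start, and then chr13:28539808-28541340 (1532 bp), 1.98 kb from it. The fourth, chr13:28536399-28537116 (717 bp), lay 6.20 kb from the start, near the gene's far end. The 4 covered 3716 bp, or 52.2% of the gene. Of 13503 windows of the same length on chromosome 13, 7.32% held any interval, 2 held 4 or more, and 0 were covered as much as CDX2, the fullest at 46.4%. The interval beyond the far end, chr13:28534470-28535424 (954 bp), lay 7.89 kb from the start. Upstream the nearest interval was chr13:28575687-28576250, 32.4 kb away and 563 bp wide.

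**Figure D1:**
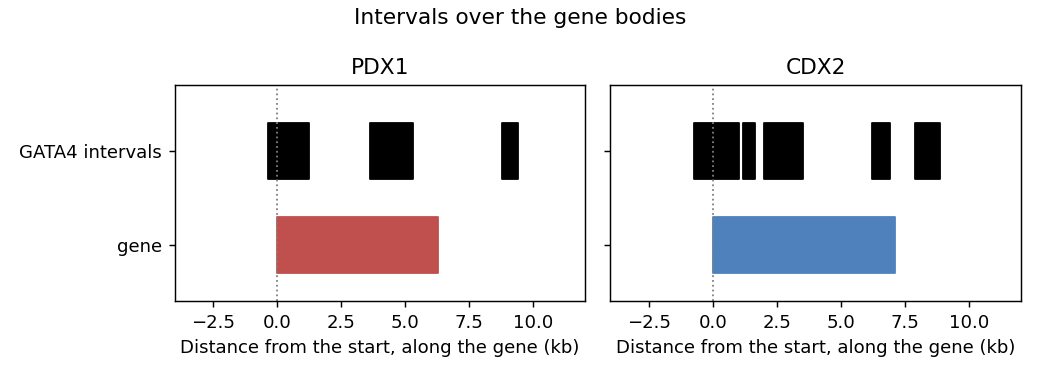
GATA4 intervals (black) over PDX1 (left) and CDX2 (right), with the gene as a coloured bar; the x axis is distance in kb from the start of each gene in the direction in which it is read. An interval lies over each start, and intervals cover 46.4% of PDX1 and 52.2% of CDX2.

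Some of the CDX2 intervals were separated by short gaps. The gap between the interval over the start and the next was 166 bp, and that between the second and the third was 344 bp. When intervals no more than 1 kb apart were merged, the 5 intervals at CDX2 became 2, from 28539808 to 28544039 (4231 bp, 3 pieces) and from 28534470 to 28537116 (2646 bp, 2 pieces). The first of these ranked second in width of 958 merged intervals on chromosome 13 and the other ranked eighth, with 8 at least as wide as it. The intervals at PDX1 were 2.39 and 3.46 kb apart and did not merge.

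Intervals over the genes were wider than those elsewhere in the same 449.1 kb. The 6 over PDX1 or CDX2 had a median width of 1567.5 bp (453 to 1736 bp), and the 11 others a median of 628 bp (271 to 1286 bp). The median of all 1013 intervals on chromosome 13 was 579 bp, and that of the whole list 586 bp. At least 1500 bp wide were 4 of the 6 intervals over the genes, 0 of the other 11, and 26 of the 1013 on the chromosome (2.57%). The interval over the CDX2 start was among the 11 widest of chromosome 13. The 2 intervals over PDX1 were among its 18 widest, and the 1532 bp interval in CDX2 among its 25 widest. Over the whole list these widths are less extreme: 4.30% of intervals were at least as wide as the one over the CDX2 start and 5.30% as the one over the PDX1 start. Chromosome 17, for comparison, had a median of 696 bp.

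**Figure D2:**
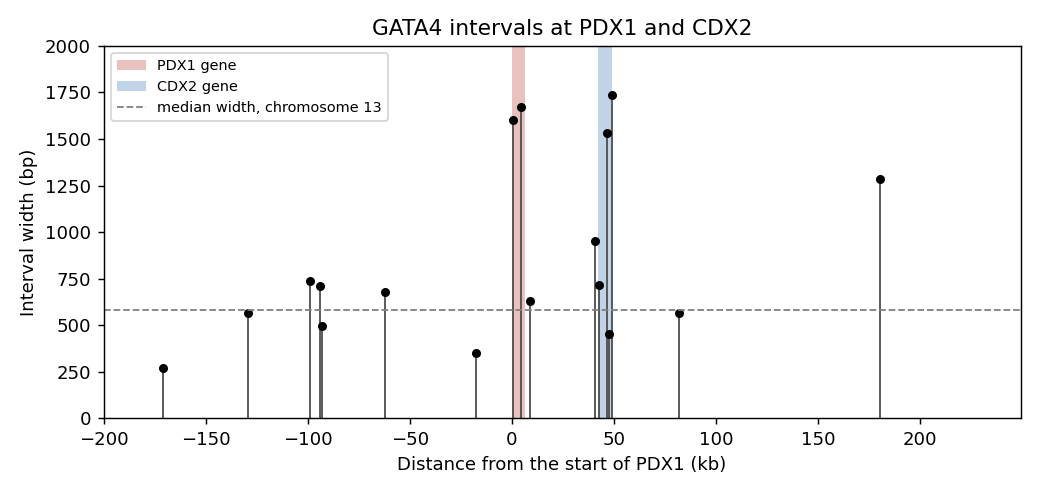
The 17 intervals of the PDX1 and CDX2 windows, plotted as interval width in bp against the distance of the interval's centre from the start of PDX1 in kb (positive toward CDX2); coloured bands are the gene bodies and the dashed line is the chromosome 13 median of 579 bp. The 4 intervals of 1500 bp or more all stand in the bands.

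By place, 7 of the 17 intervals lay before PDX1, 2 over it, 2 between the genes, 4 over CDX2 and 2 beyond it. Linking intervals no more than 12500 bp apart gave 3 clusters of 3 or more in the joined window. The CDX2 cluster ran from 28534470 to 28544039, held 5 intervals in 9.57 kb and was 56.3% covered, the highest of the 74 such clusters on chromosome 13, where the median was 17.2%. In number it was less unusual, as 13 of the 74 held 5 or more. Of the 1076 clusters in the whole list, 4.00% were covered as much, and 451 (41.9%) held as many intervals or more. The PDX1 cluster ran from 28493807 to 28503557, held 3 intervals in 9.75 kb, of which they covered 3904 bp. The remaining cluster, of 3 intervals, lay upstream of PDX1, from chr13:28394861-28395600 (739 bp) to chr13:28400578-28401074 (496 bp). It was 31.3% covered, and its intervals lay between 93.1 and 98.6 kb from the start of PDX1. The remaining 4 intervals outside clusters and not yet named lay between 61.6 and 179.8 kb from the PDX1 start and were between 271 and 1286 bp wide.

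In the order given by RefSeq, the long noncoding RNA gene PLUT is listed 4 places before PDX1. The pseudogene ATP5F1EP2 and the noncoding RNA gene LINC00543 lie between PDX1 and CDX2. URAD is listed next after CDX2, and FLT3 4 places after it. FLT3 encodes a receptor tyrosine kinase of blood progenitors. No interval was assigned to these genes, as their hg19 positions were not used here, and which exons or introns of PDX1 and CDX2 the intervals touch was not analysed.

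Against windows of equal length on chromosome 13, the PDX1 and CDX2 windows stood near the top in number. The PDX1 window held 4.18 intervals per 100 kb, and 5 of 234 other windows (2.14%) held as many or more. For the CDX2 window these values were 3.93 per 100 kb and 6 of 234 (2.56%). Any interval at all was found in 76.1% of windows of the PDX1 length and in 76.5% of those of the CDX2 length. The median window held 2 intervals for the PDX1 length (quartiles 1 and 7, highest 26) and 2.5 for the CDX2 length. Intervals covered 3.68% of the PDX1 window and 3.61% of the CDX2 window, and in each case 3 of 234 other windows were covered as much.

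**Figure D3:**
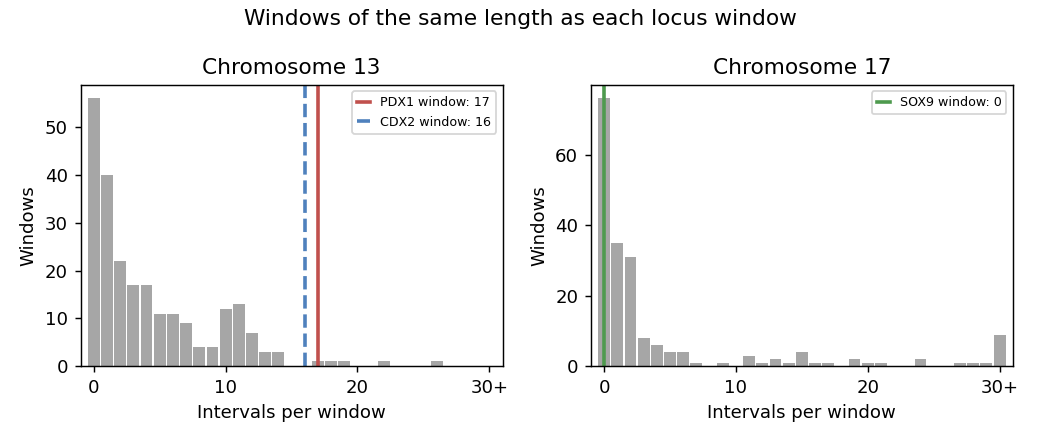
Number of windows (y) by intervals per window (x, with 30 or more in the last bar) for windows as long as the PDX1 window on chromosome 13 (left) and as long as the SOX9 window on chromosome 17 (right); vertical lines mark the gene windows. The lines at 17 (PDX1) and 16 (CDX2) stand in the upper tail, and the SOX9 line stands on the tallest bar, the windows with 0.

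The wider surroundings of PDX1 and CDX2 were also rich in intervals. Within 1 Mb of PDX1 there were 59, more than in any of 46 other windows of that length, of which the fullest held 55. Within 5 Mb of PDX1 but outside its window there were 195, or 20.3 per Mb, against 10.5 per Mb over chromosome 13 as a whole. At that density a window of the PDX1 length would hold 8.25 intervals, so the 17 found were 2.06 times the level of the surroundings. The ratio for the CDX2 window was 1.93. Density was highest next to the genes, but it did not fall steadily with distance. With a flank of 5 kb it was 18.4 per 100 kb at PDX1 and 29.2 at CDX2, with 50 kb 8.47 and 8.40, with 500 kb 2.68 and 2.38, and with 1 Mb 2.94 and 2.89. By distance from the start of PDX1, it was 1.5 per 100 kb between 100 and 200 kb, 1.67 between 200 and 500 kb and 3.2 between 500 and 1000 kb. From the start of CDX2 it was 1.0 between 50 and 100 kb and 3.0 between 100 and 200 kb. With flanks of 5 kb, 3 intervals lay at PDX1, and 40 of 5896 other windows (0.678%) held as many or more. At CDX2 there were 5, and 4 of 5611 other windows (0.0713%) held as many or more. Density is thus high over a far wider stretch than the genes themselves, and its part in their counts was not tested.

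**Figure D4:**
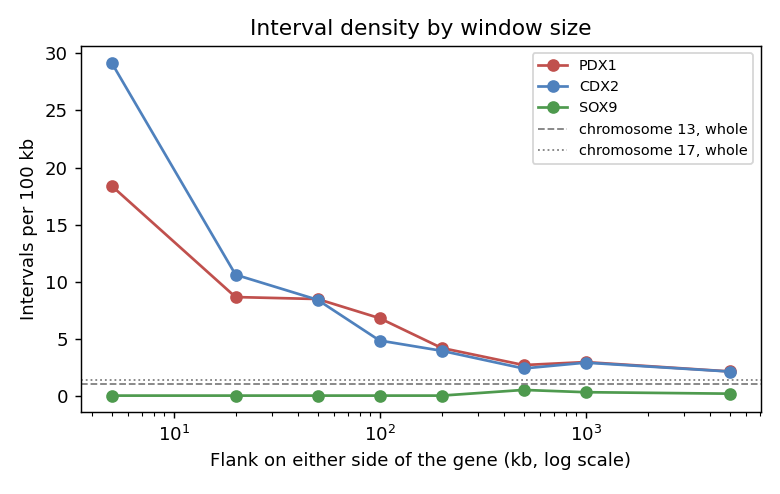
Intervals per 100 kb (y) in windows made of each gene and a flank of 5 kb to 5 Mb on either side (x, log scale); grey lines are the whole-chromosome densities. PDX1 and CDX2 stand at 18.4 and 29.2 per 100 kb at the shortest flank and 2.12 and 2.11 at the longest, with a slight rise from 500 kb to 1 Mb, and SOX9 stays at 0 up to 200 kb.

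SOX9 had no listed interval over its body or within 200 kb. It runs from 70117161 to 70122560 on chromosome 17 and is read toward rising positions. On that chromosome 5.81% of windows of the length of SOX9 held an interval, so an empty stretch of that length is the usual state. These windows were tiled without regard to genes, and how often other gene bodies are empty was not counted. Of 197 windows as long as the SOX9 window, 61.4% held an interval and 76 (38.6%) held 0. The gene lies in a stretch of 746.2 kb without an interval, from 69653760 to 70399925, which reaches 463.4 kb upstream and 282.8 kb downstream of its start. Of 1074 stretches between neighbouring intervals on chromosome 17, 28 (2.61%) were at least as long, the longest being 4310.6 kb. The median stretch was only 5.29 kb, and the share counts stretches, not the length of chromosome they span. It therefore does not say how unusual the position of SOX9 is.

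The 1.5 Mb upstream of SOX9 held 3 narrow intervals. They were chr17:68991320-68991718 (398 bp), 1125.4 kb from the start, chr17:69629512-69629843 (331 bp), 487.3 kb from it, and chr17:69653512-69653760 (248 bp), 463.4 kb from it. All 3 were narrower than the chromosome 17 median of 696 bp, and 87.1%, 93.1% and 98.0% of that chromosome's intervals were at least as wide as they. Among 51 other windows of 1.5 Mb, 86.3% held an interval, the median was 4, and 36 (70.6%) held 3 or more. Downstream the nearest was chr17:70399925-70400395 (470 bp), 282.8 kb from the start.

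The surroundings of SOX9 were sparse on the same scale. Within 5 Mb of the gene there were 17 intervals (1.70 per Mb). Each of 6 other windows of that length held more, with a median of 115. Chromosome 17 as a whole held 13.4 per Mb, but its intervals were unevenly spread. Windows as long as the SOX9 window held a median of 1 interval, against a mean of 5.45 and a highest count of 96. Within 5 Mb but outside the SOX9 window the density was 1.77 per Mb, at which a window of that length would hold 0.718 intervals. Within 5 Mb but outside the upstream stretch it was 1.65 per Mb, at which 1.5 Mb would hold 2.47. The 0 and 3 found thus lie near what the surroundings hold. Depth is unknown, and so is the rule by which an interval counted as common to the 4 libraries. An empty stretch thus means that the list has no interval there, and not that GATA4 is absent.

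**Figure D5:**
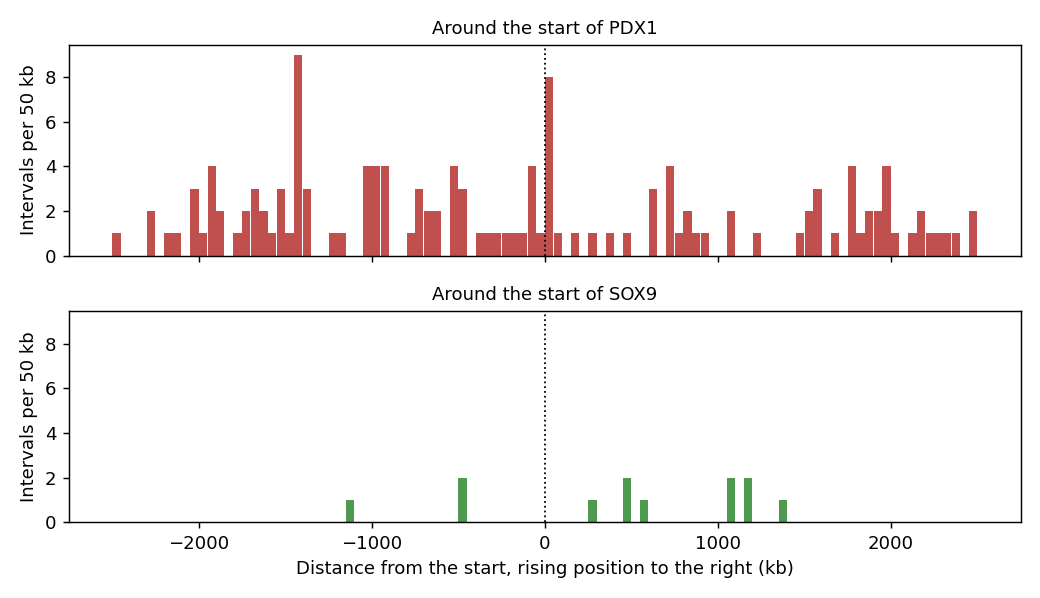
Intervals per 50 kb (y) against distance from the start in kb (x, rising position to the right) for PDX1 (top) and SOX9 (bottom), on a shared y axis. Intervals run along the PDX1 panel, with 8 in the 50 kb after the start and the highest bar, 9, far upstream, whereas the SOX9 panel is empty from 463.4 kb upstream to 282.8 kb downstream.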

How the data were processed

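GATA4 CUT&RUN was done in 4 libraries of PaTu8988S cells. The submitters' processing notes name SEACR, which calls CUT&RUN peaks, HOMER and build hg19. No source used here gives their versions, their settings or how a common peak was defined. The part of that definition in interval widths and in the short gaps between intervals was not tested. The authors deposited 1 list with 3 columns, chromosome, start and end in bp (21308 intervals and 1 blank line). Only intervals on autosomes and chromosome X were kept, and all others were left out. Positions are as in the file. Whether starts count from 0 is not stated, so widths may be 1 bp short. The hg19 positions of the genes came with the definition of the windows, and strand is textbook knowledge.

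An interval belonged to a window if they overlapped by at least 1 bp. Windows of equal length were tiled from each gene window in both directions between the chromosome's first and last interval, the gene window left out. They are neighbours, not replicates, so shares of windows are descriptions. Intervals were named by rule: over a gene or within 5 kb of its start, nearest on each side, the 3 widest, the ends of clusters, or all where a window held 12 or fewer. Genes, windows and rules were chosen with earlier results of these data known. Promoters and gene order are RefSeq (GRCh38.p14): all 3 genes matched for order and 1 for the promoter. The planned count over a list of other endoderm regulators needs hg19 positions and was not run. Counting was tested on simulated intervals. The software was Python 3.11.15 (pandas 2.3.3, numpy 2.4.6, scipy 1.17.1; figures by matplotlib 3.10.9).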

Additional observations from a re-analysis of the deposited data

How the results depend on the processing

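Alternatives were other flanks, merging intervals within 1 kb, intervals at or above the median width of 586 bp, membership by the interval's centre, windows slid in 50 kb steps, and leaving out empty windows. Of 59 recomputed values, 46 stayed within 1.5 times (densities) or within the main value's 95% exact binomial interval (shares of windows, median widths; for the 3 upstream widths, their range), an interval used as a yardstick although windows are not independent, and 13 moved further. With a flank of 100 kb the PDX1 window held 6.79 intervals per 100 kb and 0.647% of windows held as many. With 500 kb, PDX1 had 2.68 per 100 kb and 8.60% of windows, CDX2 2.38 and 12.9%, and SOX9 0.497 and 39.7%; with 2 Mb upstream of SOX9, 86.8% of windows held as many. With merging, 6.84% of windows held as many as the CDX2 window. Among intervals at or above the median width, PDX1 had 2.71 per 100 kb, where fewer intervals were counted, and the stretch upstream of SOX9 had 0, so that 100% of windows held as many. The SOX9 window held no interval within 200 kb, so it has no width. With 0 intervals every window holds as many, so its share was 100% under every setting except the 500 kb flank. Its density of 0 likewise could not rise with a shorter flank, merging or a width limit. These fixed values are among the 46 that stayed. The PDX1 and CDX2 windows share 16 intervals, so their values are not separate checks.

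The list is not split by library, so no library was left out. No paired analysis was possible because the 4 libraries form 1 group and are pooled. Without depth or scores, weak and strong intervals cannot be told apart.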
